A study of Mus musculus with 28 samples.

Results

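Amino acid transporter genes were followed across 14 populations of cells, each sorted from the back skin of 5-day-old mice (postnatal day 5), an age of hair follicle growth. The genes were chosen by symbol: Slc1a1 to Slc1a7, Slc3a1 and Slc3a2, every numbered Slc6a, Slc7a, Slc36a and Slc38a gene, and Slc43a1 to Slc43a3, with Slc7a11 left out. This gave 58 of the 23015 gene rows of the expression table. Of these, 40 reached 1 FPKM (fragments per kilobase of transcript, scaled to the mapped fragments of the library) in at least 2 of the 28 libraries and were tested. The other 18 did not, and their highest value in any library was 1.16 FPKM.

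Each population had 2 libraries, labelled replicates 1 and 2. All mice were of a mixed background of the FVB/N, C57BI/6J (as labelled) and CD1 strains. The first 8 populations came from K14-H2BGFP mice that also carried Lef1-RFP: Epi, the GFP-positive cells of the epidermal fraction; and, from the dermal fraction, ORS (outer root sheath, high GFP), Mx (matrix progenitors, low GFP), TAC (matrix progenitors labelled as expressing Shh, low GFP and Lef1-RFP positive), Mc (melanocytes, Lef1-RFP and CD117 positive), DF (dermal fibroblasts, Lef1-RFP positive, negative for CD117 and ITGA9), DP (dermal papilla, Lef1-RFP positive, high ITGA9) and Neg (a mixture of negative cells). A further 4 were papilla cells (Lef1-RFP positive, high ITGA9): ZZ-DP (labelled zig-zag) and G/AA-DP (labelled guard plus awl/auchene) were Sox2-GFP negative and positive sorts from Sox2-GFP mice, and G-DP (guard) and AA/ZZ-DP (awl/auchene and zig-zag) were Crabp1-GFP negative and positive sorts from Crabp1-GFP mice. The last pair, HF-SC (bulge stem cell precursors) and HF-ORS (the rest of the sheath), were high in K14-RFP and ITGA6 and were split by Sox9-GFP into positive and negative cells; no Lef1-RFP allele is listed for them. The K14 reporters label keratinocytes, so sheath, matrix and epidermis were separated by reporter level and tissue fraction and not by a gene particular to each. No label states whether the replicates came from separate animals or litters, so the p-values measure the spread between these libraries, which may be technical.

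Amino acids cross membranes through carriers of several families. LAT1 (Slc7a5) and LAT2 (Slc7a8) exchange large neutral amino acids such as leucine, phenylalanine and tyrosine, the last being the starting material of melanin, and both reach the cell surface only when bound to the CD98 heavy chain (Slc3a2). System A carriers (Slc38a1, Slc38a2 and Slc38a4) bring in small neutral amino acids with sodium, Slc7a1 and Slc7a2 carry arginine and lysine, Slc1 genes carry glutamate or exchange neutral amino acids, and Slc36a1 and Slc38a9 act at the lysosome, where the growth kinase complex mTORC1 reads amino acid supply. Several Slc6 genes move related molecules (taurine, creatine, noradrenaline, serotonin) rather than amino acids used for protein.

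The start regions of the genes differed in base composition along with how broadly they were expressed. RefSeq start sites (GRCm38.p6, matched by symbol) were available for 40 of the 58 genes, with 61 windows of the 250 bases before a start. In the 11 genes found at 1 FPKM or more in all 28 libraries that have an entry, the median window held 16 CG pairs (range 5 to 38, 13 windows). The 16 other tested genes had a median of 9 (1 to 32, 28 windows), the 13 untested genes a median of 6 (1 to 26, 20 windows), and all windows in the table a median of 6. This is a description, with no test. The windows of 4 genes are shown, 5′ to 3′ on the gene's own strand (the minus strand for all), with CG pairs in capitals, to set a gene expressed in all libraries (Slc38a2) beside genes with a large range between populations; the listed Slc38a4 window is the most upstream of its 3 starts.
Slc38a2, chr15:96699729-96699978, 30 CG: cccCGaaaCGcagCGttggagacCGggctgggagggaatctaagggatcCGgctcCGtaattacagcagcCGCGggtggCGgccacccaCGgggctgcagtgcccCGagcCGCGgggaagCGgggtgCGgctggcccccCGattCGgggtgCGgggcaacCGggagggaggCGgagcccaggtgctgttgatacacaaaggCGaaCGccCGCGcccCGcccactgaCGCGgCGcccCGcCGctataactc
Slc7a8, chr14:54781887-54782136, 14 CG: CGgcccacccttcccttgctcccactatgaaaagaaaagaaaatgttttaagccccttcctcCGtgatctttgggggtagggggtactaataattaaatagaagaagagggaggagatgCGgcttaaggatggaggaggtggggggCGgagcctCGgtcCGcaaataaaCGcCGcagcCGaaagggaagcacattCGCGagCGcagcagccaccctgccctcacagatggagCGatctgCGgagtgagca
Slc38a4, chr15:97055957-97056206, 3 CG: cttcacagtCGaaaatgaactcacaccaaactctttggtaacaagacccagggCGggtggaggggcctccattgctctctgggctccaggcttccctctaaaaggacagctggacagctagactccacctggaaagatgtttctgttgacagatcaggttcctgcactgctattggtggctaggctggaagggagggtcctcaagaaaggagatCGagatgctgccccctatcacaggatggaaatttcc
Slc1a3, chr15:8710808-8711057, 2 CG: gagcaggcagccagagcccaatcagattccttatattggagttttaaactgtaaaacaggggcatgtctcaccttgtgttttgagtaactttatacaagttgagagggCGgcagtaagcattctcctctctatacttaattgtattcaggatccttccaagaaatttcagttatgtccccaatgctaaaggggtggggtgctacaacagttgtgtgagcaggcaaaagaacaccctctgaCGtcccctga
The Slc38a2 window is dense in CG pairs along its whole length, those of Slc38a4 and Slc1a3 hold a few scattered ones, and in Slc7a8 most lie in the part nearest the start.

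The E-box CACGTG, which reads the same on both strands and is bound by factors such as Tfeb and Mitf, was found in 8 of the 61 windows (13.1%), against 6.02% of all 32851 windows of that length. This motif holds a CG pair. The 61 windows had a median of 9 CG pairs and 57.2% G and C, against 6 and 52.4% for all windows, and the part of this in the share was not tested. The composite Atf4 site TGATGNAA was in 2 windows (3.28% against 3.45%), and the pigment-cell M-box core TCATGTG in 3 (4.92% against 3.25%), both searched on both strands; no match overlapped one of another motif. The Slc7a8 window holds none of the 3. The 4 tested genes with an E-box are shown with 20 bases on each side, E-box in capitals, on the gene's own strand.
Slc36a1, chr11:55204289-55204334, plus strand: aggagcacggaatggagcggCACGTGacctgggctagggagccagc
Slc38a7, chr8:95853500-95853545, minus strand: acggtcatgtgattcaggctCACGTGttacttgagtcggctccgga
Slc43a1, chr2:84840239-84840284, plus strand: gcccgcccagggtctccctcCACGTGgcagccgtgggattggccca
Slc7a14, chr3:31310363-31310408, minus strand: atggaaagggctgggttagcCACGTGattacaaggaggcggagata
The boxes begin 31, 34, 64 and 69 bases before a listed start of the gene. For Slc38a7, Slc43a1 and Slc7a14 this is not the outermost start, since the stretch shown lies inside the listed span of the gene. The span of Slc43a1, for example, begins at 84838855. A match is a run of letters and not a measured binding site.

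Libraries had FPKM sums of 285981 to 515224, and 10951 to 12497 genes at 1 FPKM or more. The number of reads is unknown, so no counting error can be given. Defining markers followed most labels, with these departures. HF-ORS held 1481 and 1024 FPKM of the epidermal keratin Krt1 (ORS 7.96 and 0.548, Epi 3434 and 2643) and 1.88 and 4.44 FPKM of the sheath marker Lgr5 (ORS 93.9 and 102), which goes against a pure sheath label. DF held all 10 melanocyte markers at 1 FPKM or more, with a summed level of 1429 and 1441 FPKM, and all 12 pericyte and all 12 Schwann cell markers. The same melanocyte sum was 1271 and 1295 in G-DP, 728 and 1048 in Neg and 35.0 and 768 in ZZ-DP, where replicate 2 stands apart. Some markers of other cells were also found in keratinocyte sorts, while others of the same lists were low. The 12 smooth muscle and pericyte markers summed to 181 and 227 FPKM in ORS (DP 81.5 and 81.8). There Acta2, Tagln, Cspg4 and Mcam had means of 47.9, 64.0, 40.6 and 40.3, and Rgs5, Pdgfrb, Des and Kcnj8 of 0.887, 0.327, 0.029 and 0. The fibroblast gene Dcn had a mean of 444 in Mx, where Col1a1, Col3a1, Lum and Pdgfra were at 1.75, 4.80, 0.367 and 0.423. Sox2 was at 4.87 and 0.0891 FPKM in ZZ-DP and 0 and 4.81 in G/AA-DP, so the transcript did not separate the libraries labelled Sox2-GFP negative and positive, and directions between them rest on the labels alone. Shh and Lef1 had means of 62.7 and 245 FPKM in TAC and 47.9 and 110 in Mx. Crabp1 had means of 525 in G-DP and 1508 in AA/ZZ-DP. These differences had the direction of the labels, but none was called at the thresholds given below. Strand use in counting is not stated, so genes whose exons overlap a gene on the opposite strand are uncertain: among those named here this holds for Slc1a1, Slc1a2, Slc3a1, Slc6a6, Slc6a9, Slc7a2, Slc7a7, Slc7a10, Slc38a9, Slc38a10 and Slc43a2. In such bulk libraries, fewer cells of a type and less RNA per cell cannot be told apart.

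Of the 58 genes, 27 had a mean of at least 10 FPKM in at least 1 population, 14 were at 1 FPKM or more in every library and 15 stayed under 1 FPKM in every library. The 14 found everywhere were Slc1a4, Slc3a2, Slc6a6, Slc6a8, Slc7a1, Slc7a5, Slc7a6, Slc7a14, Slc36a1, Slc36a4, Slc38a2, Slc38a6, Slc38a9 and Slc38a10. Each library expressed 21 to 33 of the genes at 1 FPKM or more.

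The summed level of the 58 genes was highest in Mc, at 1660.2 ± 29.3 FPKM (SD, n = 2 libraries, as for every mean ± SD here). ORS followed at 1088 ± 131, HF-ORS at 1079.8 ± 19.5 and HF-SC at 877 ± 18.3; ORS and HF-ORS overlap. The lowest sums in FPKM were in the papilla: 399 ± 46.9 in DP, 401 ± 0.882 in AA/ZZ-DP and 382 ± 5.07 in G/AA-DP. Part of this order rests on the unequal FPKM sums of the libraries. With all libraries scaled to the same FPKM sum, Mx was lowest (scaled values 1080 and 1051). DP then had 1328 and 1098, AA/ZZ-DP 1218 and 1320, and G/AA-DP 1102 and 1203. On that scale Mc stayed highest (3631 and 4121), and ORS (2555 and 3165) did not overlap HF-ORS (2281 and 2123). What made up the sum differed. Slc38a2, the system A carrier SNAT2, was 47.8% of it in HF-SC and 14.1% in Mc, whereas Slc7a8 was 23.2% in Mc, 13.3% in ORS, 1.19% in HF-ORS and 0.0188% in Epi.

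**Figure D1:**
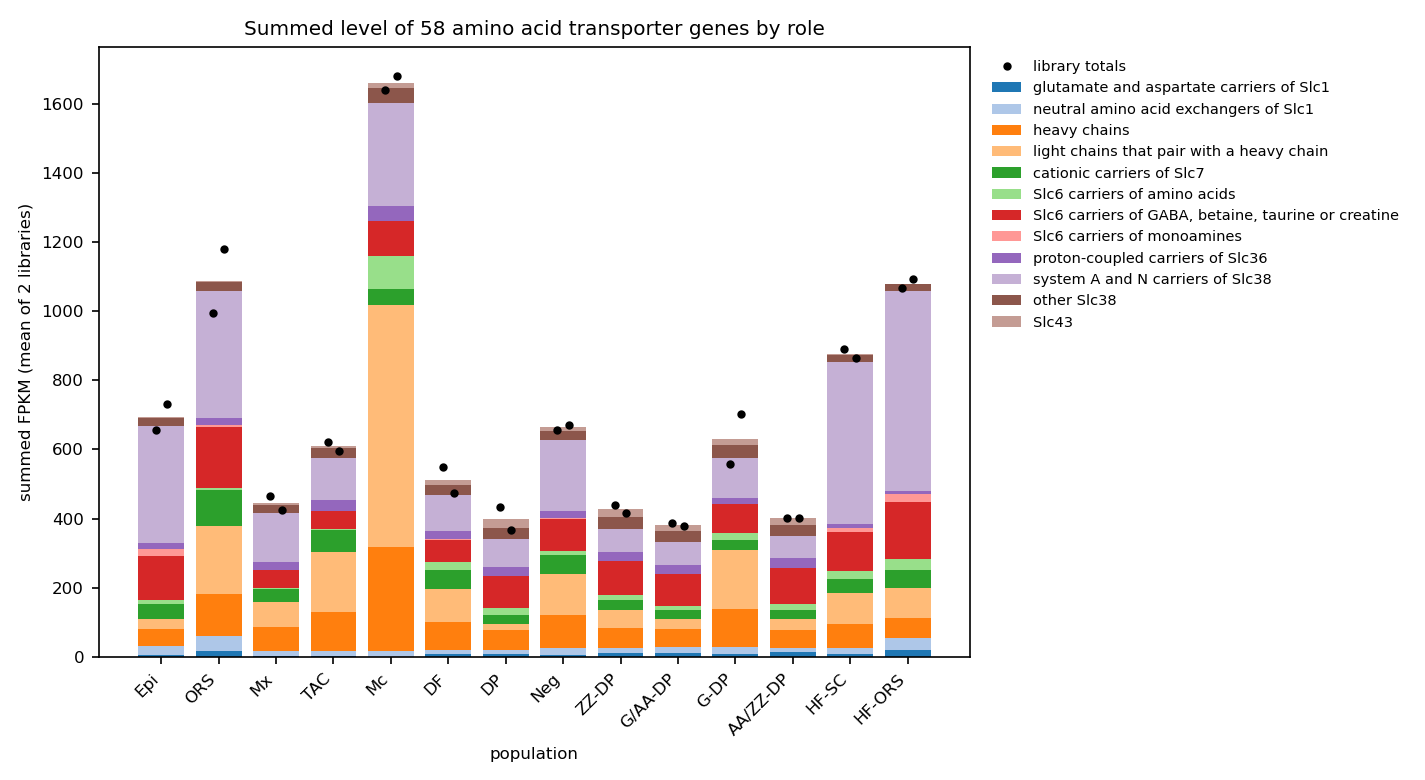
Stacked bars give the summed FPKM of the 58 genes in each population (mean of 2 libraries), coloured by role; black points are the totals of the 2 libraries. Light chains sum to 702 FPKM in Mc and 19.9 in DP, and the system A and N carriers to 579 in HF-ORS and 81.2 in DP.

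Melanocytes held the highest mean of 12 of the 40 tested genes, HF-ORS of 7, ORS of 4 and DP of 3, and Mx of 0. The matching shares of all tested genes are not given, so these counts describe the 40 genes only. Some leads were narrow: Slc38a7, counted for Mc, had a mean of 3.33 FPKM in both Mc and DP. Within the 8 populations of the K14-H2BGFP line, a gene was called a signature of a population when it was higher there than in each of the other 7 (limma on log2(FPKM + 1), adjusted p under 0.05 and at least 1 log2 unit each time). This held for 10 of the 40 genes, where 8.26% of all 15052 tested genes did: 7 in Mc (Slc3a2, Slc6a8, Slc6a15, Slc6a17, Slc7a5, Slc7a8 and Slc38a1; background 3.12%), Slc1a3 and Slc7a6 in ORS (0.206%) and Slc6a4 in Epi (1.91%). No transporter gene was a signature of Mx (0.00664%), TAC (0.193%), DF (0.312%), DP (1.81%) or Neg (0.691%). Without Mc replicate 2 the count was 6 of 40.

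**Figure D2:**
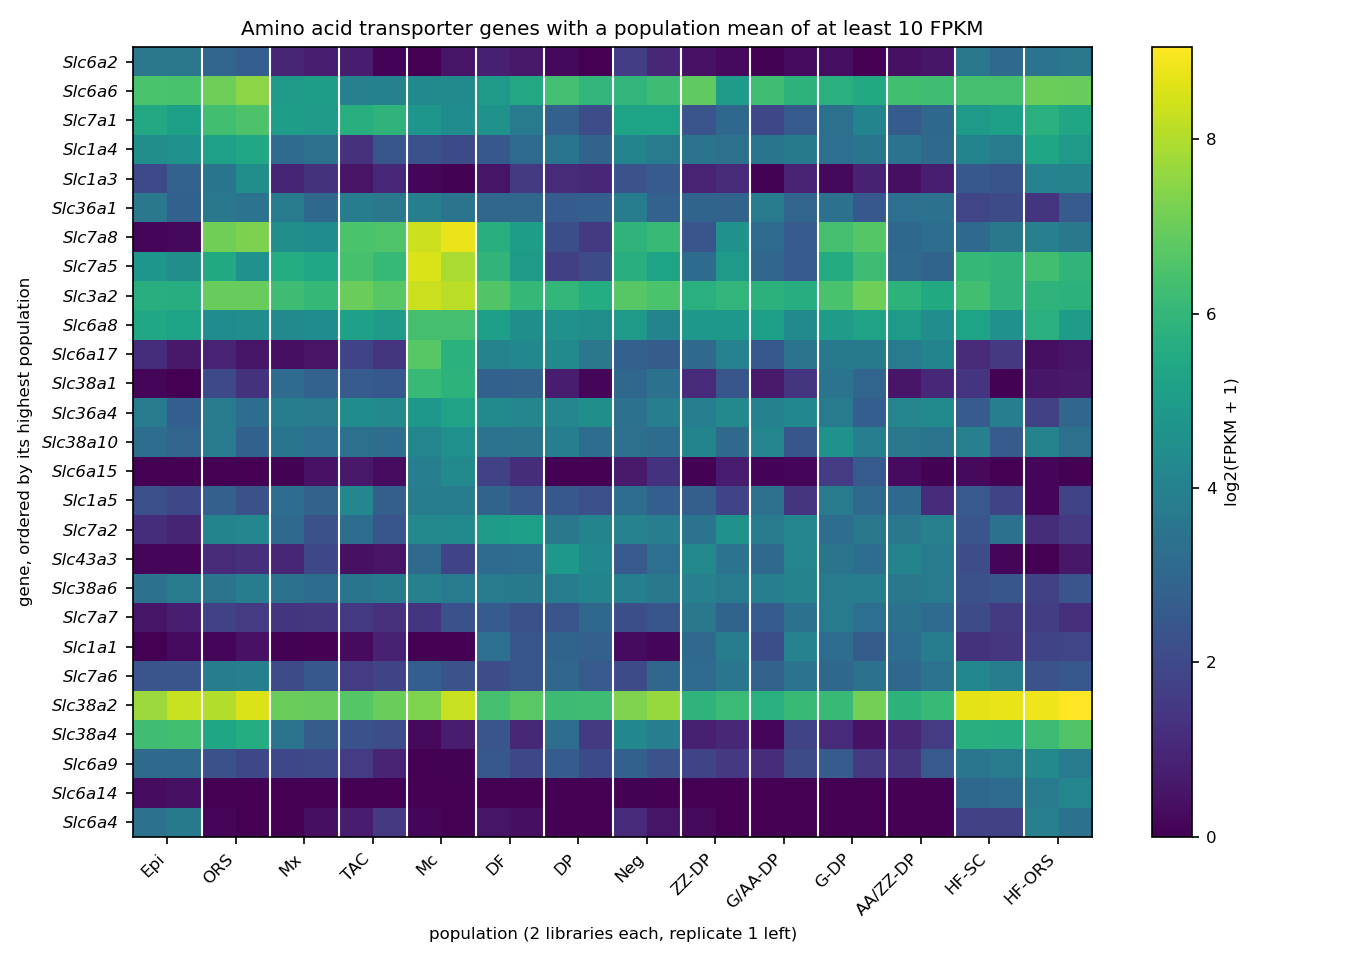
Heat map of log2(FPKM + 1) for the 27 genes with a population mean of at least 10 FPKM, with 2 columns per population (replicate 1 left) and genes ordered by the population with their highest mean. Slc38a2 is bright in every column, and of the genes highest in Mc, Slc6a15 and Slc38a1 are dark in both DP columns while Slc3a2 and Slc6a8 are not.

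Slc7a8 encodes LAT2 and lies on chromosome 14 at 54722215 to 54781886 (mm10, minus strand). Its level ran from 0.106 FPKM in an Epi library to 445 in an Mc library. It was at 327 and 445 FPKM in Mc, 135 and 155 in ORS, 88.0 and 93.7 in TAC and 82.3 and 100.4 in G-DP (replicates 1 and 2). Neg had 58.5 and 68.3, DF 52.1 and 32.5 and Mx 21.1 and 19.7. The remaining values were 14.4 and 11.2 in HF-ORS, 7.46 and 11.3 in HF-SC, 7.23 and 8.75 in AA/ZZ-DP, 8.04 and 5.12 in G/AA-DP, 4.30 and 23.3 in ZZ-DP, 3.48 and 1.90 in DP and 0.106 and 0.158 in Epi. Both ORS libraries thus lie below both Mc libraries and above every other library, while both Epi libraries lie below all others.

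Of 29 pairs of populations tested within a mouse line, 22 were called. The 7 pairs with ORS are a description, since the ORS level had been singled out from earlier results of these data. Mc exceeded ORS by 1.39 log2 units, ORS exceeded TAC by 0.66 and Neg by 1.18, with an SE of 0.45 each, and the latter pair of differences were not called. Not called either were TAC and Neg, TAC and DF, DF and Neg, or Mx and DF (adjusted p = 0.0922 to 0.680). The other sheath sort, HF-ORS, was within 1 log2 unit of HF-SC (log2 difference -0.43 ± 0.45, adjusted p = 0.741), and both lie between the DP and Mx values. HF-ORS and ORS come from different lines and gates and were not compared by a test.

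**Figure D3:**
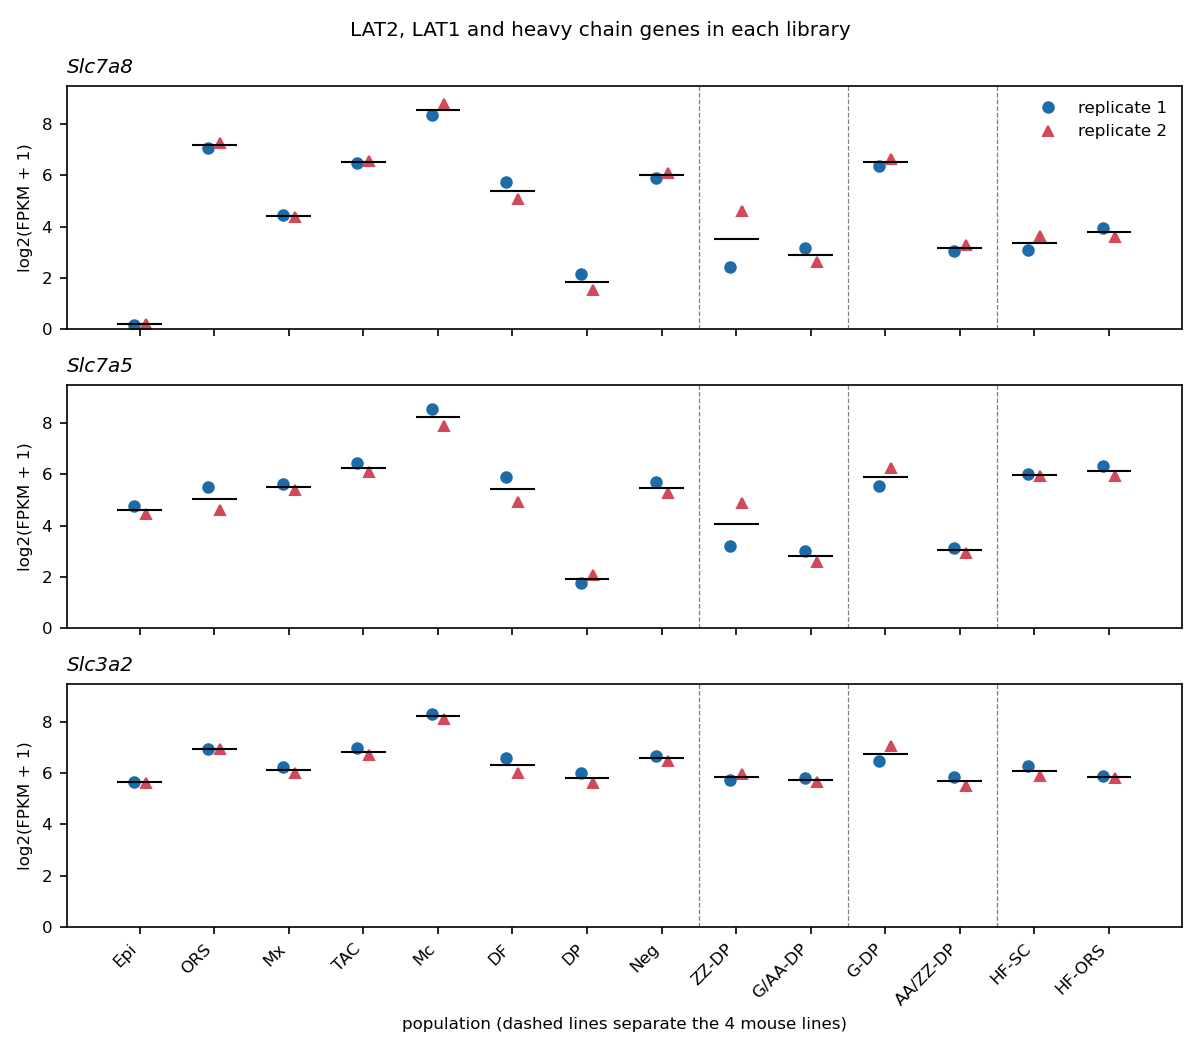
Log2(FPKM + 1) of Slc7a8 (LAT2), Slc7a5 (LAT1) and Slc3a2 (CD98 heavy chain) in each library, with circles and triangles for replicates 1 and 2 and a line at their mean. Slc7a8 runs from near 0 in Epi to its highest values in Mc and ORS, whereas Slc3a2 stays between 44.2 and 320.5 FPKM in all libraries.

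Because melanocytes had the highest Slc7a8, the level of 10 melanocyte markers was set beside it. In ORS the markers summed to 31.2 and 26.3 FPKM, which is 0.195% and 0.164% of the Mc mean, while Slc7a8 stood at 34.9% and 40.1% of its Mc mean. In TAC the same shares were 1.83% and 1.27% for the markers and 22.8% and 24.3% for Slc7a8.

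In the mesenchymal sorts the 2 shares were closer. DF had 8.92% and 9.0% of the Mc marker level and 13.5% and 8.41% of Slc7a8; G-DP had 7.94% and 8.09% and 21.3% and 26.0%. The 2 ZZ-DP libraries differed in both, with 0.219% and 4.80% of the marker level and 1.11% and 6.04% of Slc7a8. The part of melanocyte RNA in the Slc7a8 levels of these populations was not tested.

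**Figure D4:**
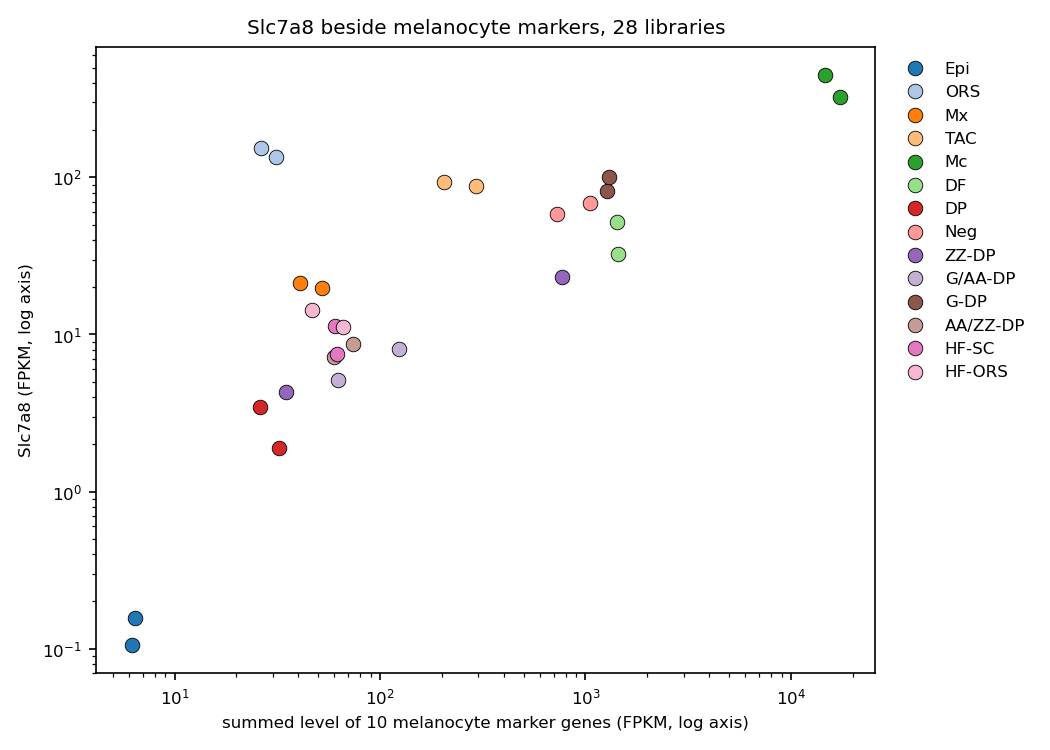
Slc7a8 level against the summed level of 10 melanocyte markers in the 28 libraries, both in FPKM on log axes, coloured by population. The ORS points (135 and 155 FPKM) lie at marker sums of 31.2 and 26.3, close to those of DP, whose Slc7a8 values are 3.48 and 1.90.

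The genes whose pattern was most like that of Slc7a8 over the 14 population means were Tnik (Pearson r = 0.897), Trp53inp1 (0.894), Fam49a (0.884), Sox5 (0.871) and Lbh (0.869), outside the transporters. Over the 28 libraries r was 0.865, 0.741, 0.829, 0.861 and 0.860. Lbh, a transcription cofactor, had mean levels of 175 FPKM in Mc, 71.1 in ORS and 3.96 in Epi. Among the transporters the closest was its own partner chain Slc3a2 (r = 0.897), then Slc38a1 (0.838), Slc7a5 (0.691) and Slc6a15 (0.683). Tnik, Trp53inp1, Sox5 and Lbh had their highest mean in Mc, as Slc7a8 did, and Fam49a in TAC. These values describe 14 points for genes picked from the whole table and carry no p.

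The heavy chain gene Slc3a2 (chromosome 19, 8706882 to 8723369) was at 320.5 and 278 FPKM in Mc, 122.8 and 122.4 in ORS, 125 and 104 in TAC and 49.8 and 48.8 in Epi. Slc7a5, LAT1 (chromosome 8, 121881146 to 121907686), was at 376 and 239 in Mc, 85.2 and 66.9 in TAC, 44.3 and 23.1 in ORS and 26.2 and 21.1 in Epi. Slc7a5 was not called between ORS and Epi (log2 difference 0.43 ± 0.44, adjusted p = 0.725), and it was 78.6 and 59.9 in HF-ORS and 63.9 and 60.4 in HF-SC, where Slc7a8 was low. In DP Slc7a5 was 2.33 and 3.19 and Slc3a2 63.1 and 48.0.

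The light chains that exchange cationic for neutral amino acids had another order. Slc7a6 (y+LAT2) was highest in HF-SC, at 18.0 and 13.0 FPKM, and in ORS, at 13.0 and 14.0, against 2.07 and 2.62 in TAC. Slc7a7 (y+LAT1) was highest in G-DP (12 and 8.97) and lowest in Epi (0.423 and 0.710). Slc7a10, the carrier Asc-1, reached 1 FPKM only in mesenchymal sorts, with 4.48 and 0.819 in DP. Slc7a9, Slc7a12, Slc7a13 and the second heavy chain gene Slc3a1 did not pass the level needed for testing.

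Slc38a2 (SNAT2; chromosome 15, 96687392 to 96699728) had the highest mean FPKM of the 58 genes in 8 of the 14 populations; Slc6a6 led in 3 papilla sorts, Slc3a2 in TAC and G-DP, and Slc7a8 in Mc. It was at 456 and 532 FPKM in HF-ORS, 411 and 428 in HF-SC, 259.6 and 379 in ORS and 208 and 312 in Epi. In the dermal papilla it was 73.4 and 75.4 in DP and 53.0 and 69.7 in G/AA-DP, so every keratinocyte library was above every library of those sorts. The neighbouring Slc38a1 (SNAT1; 96571418 to 96643438) was at 67.8 and 57.2 in Mc, and the next population of the line was Neg at 7.10 and 9.45. Slc38a4 (SNAT4; 96994816 to 97055956), from the same stretch of chromosome 15, had another order: 73.8 and 95.5 in HF-ORS, 76.6 and 78.3 in Epi, 50.6 and 48.6 in HF-SC, 40.2 and 47.3 in ORS and 0.182 and 0.616 in Mc. The 3 neighbours thus did not share a pattern: Slc38a1 was highest in Mc, where Slc38a4 was lowest.

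Slc7a1, the main arginine and lysine carrier CAT1 (chromosome 5, 148327410 to 148399904), was at 78.4 and 91.3 FPKM in ORS, 50.9 and 57.9 in TAC, 52.7 and 38.9 in HF-ORS and 43.7 and 34.5 in Epi, against 5.94 and 3.37 in DP. Slc7a2 (CAT2) was nearly the reverse among these, with 30.3 and 33.8 in DF, 18.1 and 19.0 in Mc and 11.4 and 15.9 in DP against 1.28 and 0.907 in Epi; ORS, at 16.0 and 17.2, was high for both. Slc7a14, a lysosomal family member, varied little, from 2.15 FPKM in HF-SC replicate 1 to 6.86 in G-DP replicate 2.

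Of the Slc1 genes, Slc1a4 (ASCT1, an exchanger of serine and alanine) was at 35.2 and 41.9 FPKM in ORS, 40.1 and 29.2 in HF-ORS and 21.4 and 23.4 in Epi, and at 1.45 and 4.42 in TAC. Slc1a5 (ASCT2, a glutamine exchanger) stayed low, with its highest mean in Mc (12.9 and 13.3). Of the glutamate carriers, Slc1a3 (GLAST) was at 10.6 and 21.5 in ORS, 15.2 and 15.5 in HF-ORS and 3.01 and 6.27 in Epi. It was not high in every keratinocyte sort, and its lower level in Mx is given below. Slc1a1 (EAAC1) was at 7.61 and 12.8 in ZZ-DP, 8.69 and 13.4 in AA/ZZ-DP and 6.60 and 5.82 in DP. Both Mc libraries list Slc1a1 at 0. Slc1a2 exceeded 1 FPKM in both libraries of HF-SC (1.76 and 1.96) and of no other population. Slc1a6 and Slc1a7 were not tested.

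Among the Slc6 genes, the taurine carrier Slc6a6 was the most abundant, with 134 and 179 FPKM in ORS, 128 and 122 in HF-ORS, 89.9 and 85.9 in Epi and 81.5 and 61.9 in DP, and 14.3 and 14.7 in TAC. The creatine carrier Slc6a8 was highest in Mc (83.7 and 82.4) and lowest in Mx (18.5 and 20.2). The neutral amino acid carriers Slc6a17, of vesicles, and Slc6a15 were also highest in Mc, at 102 and 54.5 and 13.6 and 18.8. Slc6a15 was listed at 0 in both ORS and both Epi libraries.

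Slc6a9, Slc6a14, Slc6a2 and Slc6a4 were highest in keratinocyte sorts. The glycine carrier Slc6a9 was at 18.2 and 12.5 FPKM in HF-ORS, 10.6 and 12.2 in HF-SC and 7.67 and 7.59 in Epi. Slc6a14, a carrier of both neutral and cationic amino acids, was at 12 and 17.0 in HF-ORS and 7.37 and 8.03 in HF-SC, at 0.244 and 0.328 in Epi and at most 0.0416 FPKM in every other library. The noradrenaline carrier Slc6a2 was at 11.1 and 11.0 in Epi, 9.82 and 11.1 in HF-ORS and 6.80 and 5.49 in ORS, and at 0.138 and 0 in DP. The serotonin carrier Slc6a4 (chromosome 11, 76998597 to 77032343) was at 14.5 and 9.35 in HF-ORS and 9.43 and 11.6 in Epi, and at 0.0783 and 0 in ORS. For Slc6a4, both HF-ORS libraries were nearer to Epi than to ORS.

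The lysosomal and remaining carriers follow. Slc36a1 (PAT1) was at 13.4 and 11.1 FPKM in TAC and 2.73 and 3.32 in HF-SC, and Slc36a4 (PAT4) at 27.2 and 36.3 in Mc and 2.46 and 6.97 in HF-ORS. Slc38a9, the arginine sensor of mTORC1, ranged from 1.01 to 8.77 FPKM over all libraries. Slc38a6 was at 8.09 to 16.0 FPKM in the 24 libraries other than HF-SC (3.77 and 4.33) and HF-ORS (2.40 and 4.25), and these 4 come from 1 mouse line. Slc38a10 was highest in Mc (16.5 and 22.5) and lowest in Epi (8.63 and 6.74). Slc43a3, a carrier of purine bases, was at 27.3 and 17.5 in DP and 0.113 and 0.126 in Epi; Slc43a1 (LAT3) and Slc43a2 (LAT4) stayed under 10 FPKM in every library.

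The first comparison asks what separates the outer root sheath from surface epidermis. Of the 40 genes, 7 were called higher in ORS and 1 lower, where 9.83% of all tested genes were called (5.35% higher, 4.48% lower). The median log2 difference of the 40 was 0.13, and that of all tested genes 0.01. Here and below, differences are on the log2(FPKM + 1) scale, which understates changes of low genes, ± SE, with Benjamini-Hochberg adjusted p from limma over all tested genes. Apart from Slc7a8 (7.01 ± 0.45), known beforehand, the largest rise was in Slc7a2, from 1.28 and 0.907 to 16.0 and 17.2 FPKM (log2 difference 3.08 ± 0.41, adjusted p = 1.96e-05). The heavy chain Slc3a2 rose (log2 difference 1.30 ± 0.25, adjusted p = 0.00105), as did Slc7a6 (log2 difference 1.47 ± 0.35, adjusted p = 0.00730). Slc1a3, Slc38a1 and Slc7a1 also passed (log2 differences 1.58 ± 0.43, 1.60 ± 0.46 and 1.10 ± 0.34; adjusted p = 0.0189, 0.0292 and 0.0402). Slc6a4 fell (log2 difference -3.47 ± 0.30, adjusted p = 9.99e-08). In none of the 8 did the libraries of the 2 groups overlap. Some markers of other cells were higher in ORS as well. Of 12 smooth muscle and pericyte markers 5 were called higher, among them Acta2 (47.9 against 0.547 FPKM) and Tagln (64.0 against 2.12), and 1 lower. Their sum was 181 and 227 in ORS and 35.4 and 25.7 in Epi. Rgs5, Pdgfrb, Des and Kcnj8, with ORS means of 0.887, 0.327, 0.029 and 0, were not called. Called higher were also 2 of 10 melanocyte and 2 of 12 fibroblast markers, with Dcn at 76.0 against 7.14 and Col3a1 at 3.26 against 0.086. Col1a1 and Pdgfra, at 1.57 and 0.262 in ORS, were not called. Of 12 Schwann cell markers 2 were higher and Mbp was lower (0.133 against 3.53), and 6 of 12 keratinocyte markers were lower. Their part in the transporter calls was not tested.

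The count of called genes was 4 without Epi replicate 1, 5 without Epi replicate 2 and 5 without ORS replicate 2. Slc7a1 lost its call without any of the 4 libraries (log2 differences of 0.936 to 1.27) and Slc38a1 without any but ORS replicate 2 (1.26 to 1.66). Slc7a6 lost its call without any but ORS replicate 1 (1.42 to 1.48) and Slc1a3 without Epi replicate 1 or ORS replicate 2 (1.10 to 1.15). Slc7a2, Slc3a2 and Slc6a4 kept theirs. So did Slc7a8, which is a description, since its ORS level was known beforehand.

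Between matrix and sheath, 10 of the 40 genes were called lower in Mx and 0 higher, where 3.83% of all tested genes were called (1.2% higher, 2.64% lower). The median log2 difference was -0.15, against 0.02 for all genes. The ORS libraries are those of the comparison with Epi. The glutamate carrier Slc1a3 fell by the most, from 10.6 and 21.5 FPKM in ORS to 0.931 and 1.50 in Mx (log2 difference -2.88 ± 0.43, adjusted p = 3.98e-04). Slc7a8, counted among the 10 although its ORS level was known beforehand, was at 21.1 and 19.7 FPKM in Mx (a difference of -2.76 ± 0.45, given as a description). Then came Slc38a4 (-2.40 ± 0.55, adjusted p = 0.0132), the taurine carrier Slc6a6 (-2.31 ± 0.37, 7.39e-04), the serine exchanger Slc1a4 (-2.03 ± 0.34, 0.00115) and the noradrenaline carrier Slc6a2 (-1.96 ± 0.33, 9.27e-04). Slc7a6, Slc7a1, Slc7a2 and Slc38a2 fell by 1.58, 1.47, 1.47 and 1.32 log2 units (adjusted p = 0.0103, 0.0128, 0.0477 and 0.0243). Slc7a5 was not among them: it was at 47.8 and 40.9 in Mx and 44.3 and 23.1 in ORS (log2 difference 0.45 ± 0.44, adjusted p = 0.876).

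Slc38a1, at 8.01 and 6.21 FPKM in Mx and 3.01 and 1.50 in ORS, was called higher with the replicate block and in the fit within the mouse line (1.35, adjusted p = 0.0462 and adjusted p = 0.0363), but not here (log2 difference 1.35 ± 0.46, adjusted p = 0.137). Some markers of other cells moved as well. Of 12 smooth muscle and pericyte markers 5 were lower in Mx and 1 higher, with Acta2 at 2.88 against 47.9 FPKM. Their sum was 42.3 and 26.8 in Mx against 181 and 227 in ORS. Rgs5 (1.95 against 0.887) and Pdgfrb (0.473 against 0.327) were not called. Of 12 Schwann cell markers 2 were lower, and of 12 fibroblast markers Thy1 was lower and Dcn higher (444 against 76.0 FPKM). The fibroblast markers Col1a1, Col3a1, Lum and Pdgfra, at 1.75, 4.80, 0.367 and 0.423 in Mx, were not called. Their part in the result was not tested.

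With 0 called higher, limma gave 12 genes with an unadjusted p under 0.05 in either direction. In the counts that follow Slc7a8 stays a description, since its ORS level was known beforehand. The count was 5 without ORS replicate 2, 6 without ORS replicate 1, 6 without Mx replicate 2 and 7 without Mx replicate 1; Slc1a3, Slc1a4, Slc6a2, Slc6a6 and Slc7a8 kept their calls in each, while Slc38a4 (0.0742 to 0.238), Slc7a1 (0.0550 to 0.156), Slc7a2 (0.187 to 0.574), Slc7a6 (0.0686 to 0.127) and Slc38a2 (0.109 to 0.328) lost theirs without 3 or 4 of the libraries (adjusted p in parentheses).

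The Lef1-RFP positive part of the matrix gate, TAC, was set against the whole of it, Mx; the gates can share cells. Slc7a8 was higher in TAC, at 88.0 and 93.7 FPKM against 21.1 and 19.7 (log2 difference 2.1 ± 0.45, adjusted p = 0.0223), and Slc1a4 lower, at 1.45 and 4.42 against 8.08 and 9.27 (log2 difference -1.41 ± 0.34, adjusted p = 0.0469). These were the 2 genes called of 40, where 1.27% of all genes were (1.04% higher, 0.233% lower). Markers of other cells moved beside Slc7a8. Of 12 fibroblast markers 6 were called higher, with Col1a1 at 40.1 against 1.75 FPKM and Col3a1 at 71.2 against 4.80, and 11 reached 1 FPKM in both TAC libraries against 8 and 6 in Mx. The fibroblast sums were 559.8 and 486 in TAC and 517 and 441 in Mx, where Dcn makes up most, and 4 of 12 papilla markers were also called higher. No melanocyte marker was called: their sum was 293 and 204 FPKM in TAC, with 10 and 9 of 10 at 1 FPKM or more, and 40.9 and 52.2 in Mx, with 7 and 9. Their part in the result was not tested. Slc7a8 lost its call without any of the 4 libraries (adjusted p = 0.125 to 0.175) and Slc1a4 without any but TAC replicate 2 (0.196 to 0.646).

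The 4 keratinocyte sorts of the K14-H2BGFP line (Epi, ORS, Mx and TAC) were set against its 2 mesenchymal sorts (DF and DP), each sort weighted equally. Of 40 genes, 6 were higher and 6 lower in the epithelium, where 26% of all tested genes were called (11.5% higher, 14.5% lower). The median log2 difference of the 40 was close to 0, against 0.05 for all genes. Higher in epithelium were the arginine carrier Slc7a1, with means of 52.1 and 11.5 FPKM (log2 difference 2.29 ± 0.21, adjusted p = 2.14e-08), Slc38a4 (2.19 ± 0.34), Slc7a5 (1.69 ± 0.27), Slc6a2 (1.52 ± 0.20), Slc38a2 (1.13 ± 0.20) and Slc1a3 (1.02 ± 0.26); their adjusted p ran from 2.14e-08 to 0.00333. Lower were the vesicle carrier Slc6a17, with 0.994 and 15.9 FPKM (log2 difference -3.14 ± 0.25, adjusted p = 3.61e-09), the purine carrier Slc43a3 (log2 difference -3.05 ± 0.35, adjusted p = 4.82e-07), Slc1a1 (-2.60 ± 0.28), Slc7a2 (-1.77 ± 0.25), Slc7a10 (-1.34 ± 0.24) and Slc7a7 (-1.29 ± 0.24), with adjusted p of at most 1.90e-04. The libraries of the 2 sides did not overlap for Slc7a1, Slc1a1, Slc6a17, Slc7a7, Slc7a10 and Slc43a3.

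Slc1a3 lost its call without DF replicate 1, Epi replicate 2, ORS replicate 2, Mx replicate 2 or TAC replicate 2 (adjusted p = 0.00835 to 0.0379, differences under 1), as did Slc7a10 without DP replicate 1. Scaling by medians of ratios gave 4 higher and 6 lower, with Slc38a2 and Slc1a3 then under 1 log2 unit. With DP alone as the mesenchyme, leaving out DF and its markers of other cells (chosen after seeing the data), 8 were higher and 6 lower. Slc38a1 (1.39, adjusted p = 0.00483) was then among the higher. Slc7a8 is counted among them too, but its difference of 2.73 is a description, since its level in ORS was known beforehand.

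Dermal papilla cells were compared with dermal fibroblasts. Of 40 genes, 6 were lower in DP and 0 higher (limma, 9 at an unadjusted p under 0.05 in either direction), where 6.69% of all tested genes were called (2.44% higher, 4.25% lower). The median log2 difference of the 40 was -0.02, and that of all genes 0.01. Slc7a8 was at 3.48 and 1.90 FPKM in DP and 52.1 and 32.5 in DF (log2 difference -3.55 ± 0.45, adjusted p = 5.20e-05), and Slc7a5 at 2.33 and 3.19 and 59.4 and 29.3 (log2 difference -3.52 ± 0.44, adjusted p = 4.01e-05). Slc38a1 was at 0.635 and 0.104 and 5.97 and 6.37 (log2 difference -2.41 ± 0.46, adjusted p = 0.00222), and Slc7a1 at 5.94 and 3.37 and 23.9 and 12.7 (log2 difference -1.74 ± 0.34, adjusted p = 0.00225). In DP, both libraries list Slc6a15 and the GABA carrier Slc6a11 at 0, where DF had 2.42 and 1.27 and 1.41 and 1.35 (adjusted p = 0.00921 and 2.79e-04).

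DF also held markers of other cells, as given above. Its melanocyte markers stood at 8.92% and 9.0% of the Mc level, with 10 of 10 at 1 FPKM or more, against 0.163% and 0.200% in DP, with 6 and 8 of 10. Of the genes called, Slc7a8, Slc7a5, Slc38a1 and Slc6a15 stood in DF at 13.5% and 8.41%, 19.3% and 9.54%, 9.55% and 10.2% and 14.9% and 7.83% of their Mc means. The part of melanocyte RNA in these calls was not tested. Slc6a15 lost its call without DF replicate 1, DP replicate 1 or DP replicate 2 (adjusted p = 0.0531 to 0.140) and Slc7a1 without DF replicate 1 (0.0713); the count without DF replicate 1 was 4. Calls in the other direction appeared under other settings: Slc43a3 was higher in DP with a pseudocount of 5 (1.03, adjusted p = 0.0460, against an adjusted p = 0.199 here), and Slc7a10 without DP replicate 2 (1.37, adjusted p = 0.0325). Of 12 pericyte markers 8, and of 12 Schwann cell markers 8, were also lower in DP, while the Schwann cell marker S100b was called higher (44.2 against 5.96 FPKM). Markers of keratinocytes, whose sorts were high in Slc7a1, summed to 1047 and 302 FPKM in DF and 81.1 and 128 in DP, and their part was not tested.

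Melanocytes were compared with fibroblasts, the Lef1-RFP positive cells with and without CD117. This comparison uses the same DF libraries as the one before. Of 40 genes, 8 were higher in Mc and 3 lower, where 18.2% of all tested genes were called (6.67% higher, 11.5% lower); medians were 0.06 for the 40 and 0.02 for all. Slc7a8 rose from 52.1 and 32.5 to 327 and 445 FPKM (log2 difference 3.18 ± 0.45, adjusted p = 3.03e-05) and Slc38a1 from 5.97 and 6.37 to 67.8 and 57.2 (log2 difference 3.14 ± 0.46, adjusted p = 4.70e-05). Slc7a5 rose from 59.4 and 29.3 to 376 and 239 (log2 difference 2.81 ± 0.44, adjusted p = 7.67e-05) and Slc3a2 from 96.8 and 64.3 to 320.5 and 278 (log2 difference 1.91 ± 0.25, adjusted p = 1.03e-05), so both light chains and their heavy chain were called together. Slc6a15, Slc6a17, Slc6a8 and Slc38a2 were higher by 2.61, 2.09, 1.58 and 1.24 log2 units (adjusted p = 1.03e-05, 7.77e-04, 0.00102 and 0.0100). Slc1a1 and Slc6a11 were listed at 0 in both Mc libraries and at 8.81 and 4.34 and 1.41 and 1.35 in DF (adjusted p = 1.20e-04 and 5.95e-05), and the glycine carrier Slc6a9 fell (log2 difference -2.19 ± 0.45, adjusted p = 0.00115). Slc38a2 lost its call without DF replicate 1 or Mc replicate 2 (adjusted p = 0.0907 to 0.211).

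**Figure D5:**
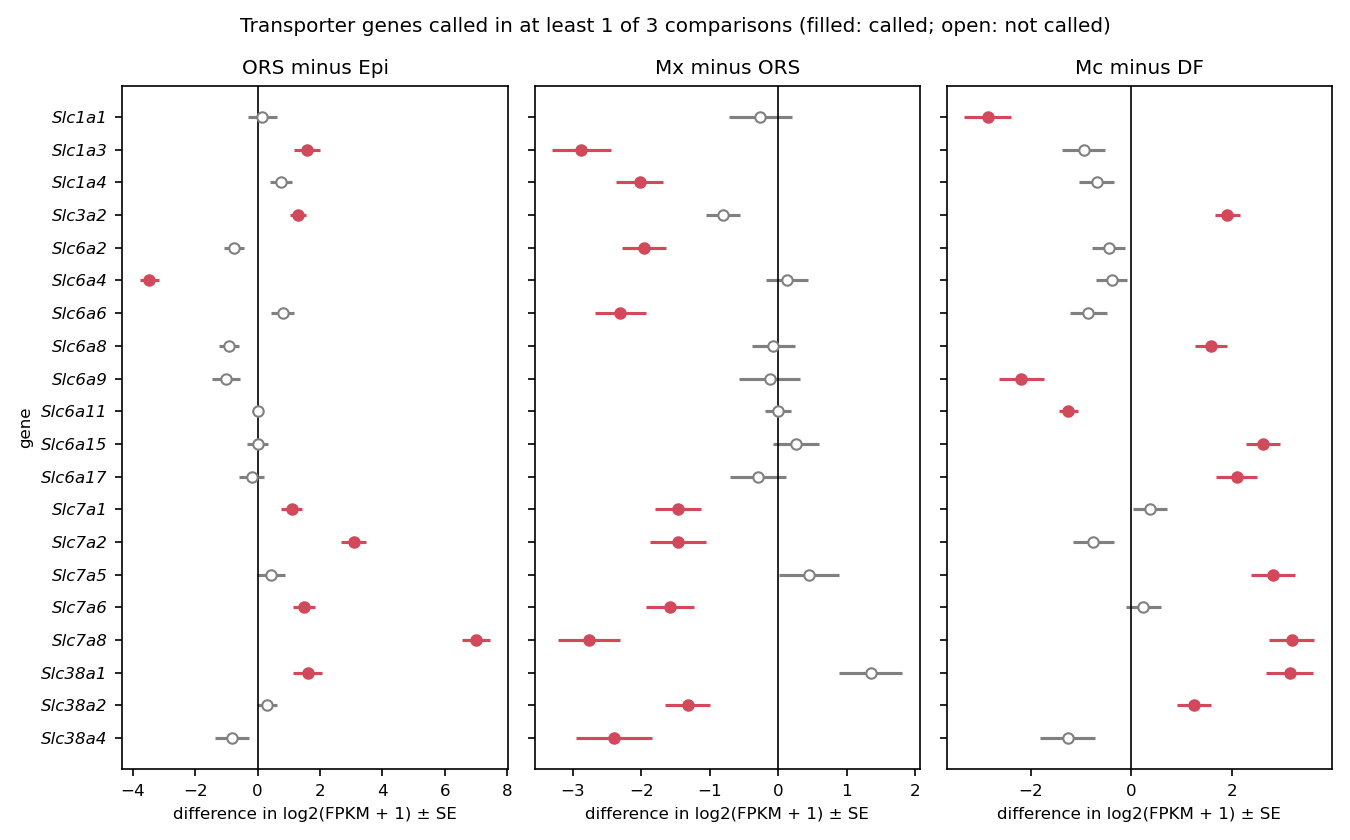
Differences in log2(FPKM + 1) ± SE for the genes called in at least 1 of 3 comparisons (ORS minus Epi, Mx minus ORS, Mc minus DF); filled points were called, open points were not. Slc7a8 is positive in ORS minus Epi and in Mc minus DF, and every called gene is negative in Mx minus ORS. The fitted values of Slc1a1 and Slc6a11 in Mc minus DF are against a level listed at 0 and are no folds.

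Papilla subtypes were compared within their mouse lines. By Crabp1-GFP, 4 of 40 genes were higher in G-DP than in AA/ZZ-DP and 0 lower, where 0.505% of all tested genes were called (0.412% higher, 0.093% lower): Slc7a8, at 82.3 and 100.4 FPKM against 7.23 and 8.75 (log2 difference 3.36 ± 0.45, adjusted p = 6.59e-04), Slc7a5, at 46.2 and 74.2 against 7.71 and 6.62 (log2 difference 2.87 ± 0.44, adjusted p = 0.00259), Slc38a1, at 10.2 and 6.67 against 0.446 and 1.07 (log2 difference 2.42 ± 0.46, adjusted p = 0.0191), and Slc6a15, at 1.98 and 4.85 against 0.197 and 0.0489 (log2 difference 1.90 ± 0.34, adjusted p = 0.0107). All 4 are signature genes of Mc. The melanocyte markers moved with them: the sum was 1271 and 1295 FPKM in G-DP, with 10 of 10 at 1 FPKM or more in both libraries, and 59.7 and 74.1 in AA/ZZ-DP, with 9 and 8, and none was at 0 in any of the 4. Their part in the result was not tested.

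The count was 2 without AA/ZZ-DP replicate 1, 1 without AA/ZZ-DP replicate 2 and 1 without G-DP replicate 2, Slc7a8 alone keeping its call in every such fit. Slc38a1 lost it without any of the 4 libraries (adjusted p = 0.0595 to 0.147), Slc6a15 without any but G-DP replicate 1 (0.0505 to 0.195) and Slc7a5 without G-DP replicate 2 or AA/ZZ-DP replicate 2 (0.0591 to 0.0675). With the spread taken from the 4 libraries of this line alone, 0 were called by limma and 6 had an unadjusted p under 0.05.

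By Sox2-GFP, 0 of 40 genes were called between the libraries labelled G/AA-DP and ZZ-DP, where 0.00664% of all tested genes were; limma gave 1 transporter gene with an unadjusted p under 0.05. Slc7a8 was at 8.04 and 5.12 and 4.30 and 23.3 FPKM, with overlapping libraries (-0.61 ± 0.45).

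By Sox9-GFP, HF-SC held more Slc7a6, 18.0 and 13.0 FPKM against 3.98 and 4.53 (log2 difference 1.64 ± 0.35, adjusted p = 0.00831), and more Slc7a2, 4.18 and 9.30 against 1.27 and 1.81 (log2 difference 1.53 ± 0.41, adjusted p = 0.0344), than HF-ORS. It held less Slc6a4, 2.38 and 2.39 against 14.5 and 9.35 (log2 difference -1.91 ± 0.30, adjusted p = 6.18e-04), Slc1a3, 4.66 and 4.06 against 15.2 and 15.5 (log2 difference -1.61 ± 0.43, adjusted p = 0.0340), and Slc1a4, 16.1 and 11.9 against 40.1 and 29.2 (log2 difference -1.24 ± 0.34, adjusted p = 0.0424). These 5 of 40 (2 higher, 3 lower) compare with 4.4% of all tested genes (2.66% higher, 1.73% lower). Slc7a6, Slc7a2 and Slc6a4 had the same direction here as in ORS against Epi, and Slc1a3 and Slc1a4 the opposite. Slc1a4 was not called in ORS against Epi (log2 difference 0.75 ± 0.34, adjusted p = 0.221). A difference between the 2 comparisons was not tested. Krt1, given above, also differed between these sorts, at 238 and 203 in HF-SC, and its part was not tested.

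Without any 1 of the 4 libraries, HF-SC replicate 1 or 2 or HF-ORS replicate 1 or 2, the count was 2. Slc1a3 (0.0733 to 0.156) and Slc1a4 (0.0534 to 0.282) lost their calls in each such fit, Slc7a2 in all but that without HF-SC replicate 1 (0.0664 to 0.322) and Slc7a6 without HF-SC replicate 1 or HF-ORS replicate 1 (0.0626 to 0.0757; adjusted p in parentheses). With the spread taken from this line alone, 0 were called by limma and 9 had an unadjusted p under 0.05.

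Other genes of amino acid use were counted from 5 lists, each set beside the share of all tested genes called; no list was tested against other genes. Between epithelium and mesenchyme, 7 of 19 cytosolic aminoacyl-tRNA synthetases, which load amino acids on tRNA, were higher in epithelium and 0 lower, which is 36.8% called against 26% of all genes (11.5% higher, 14.5% lower), with a median log2 difference of 0.91 against 0.05. The highest were Gars (56.7 against 19.1 FPKM, log2 difference 1.55 ± 0.18, adjusted p = 8.13e-07), Kars (1.36 ± 0.18), Qars (1.29 ± 0.15) and Rars (1.21 ± 0.17). Of 25 genes of the Atf4 amino acid starvation response, 7 were higher and 1 lower (32% called, median 0.31): the serine synthesis genes Phgdh (2.70 ± 0.31) and Psat1 (1.88 ± 0.24) and the enzyme Cth were among the higher. Of 30 enzymes of glutamine, branched-chain, arginine, proline and glycine use, 8 were higher, including Ass1 (2.84 ± 0.52) and Shmt1 (2.74 ± 0.41), and 4 lower (40% called), including the cysteine dioxygenase Cdo1 (-3.00 ± 0.38). Of 33 sensing genes upstream of mTORC1, 2 were higher and 1, Rragd, lower (-1.50 ± 0.23), and of 20 carriers of other families, 2 were higher, among them Slc25a13 (1.28 ± 0.20); at 9.09% and 10% called, both lists lie below the 26% of all genes.

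In melanocytes against fibroblasts, 5 of 33 sensing genes were higher and 1 lower, which is 18.2% called, the same share as over all genes (18.2%), with a median of 0.40 against 0.02. Rragd, a Rag GTPase, was at 19.8 against 2.73 FPKM (log2 difference 2.54 ± 0.38, adjusted p = 5.19e-05), and Lamtor1, Flcn and Fnip1, which act on the Rag GTPases, were higher by 1.71, 1.58 and 1.56 log2 units; Fnip2 was the fifth, and Sesn1 the lower gene. Of 20 other carriers, 5 were higher and 1 lower (30% called, median 0.44): the peptide carrier Slc15a1 (log2 difference 5.17 ± 0.72, adjusted p = 2.25e-05), Mfsd12 (3.50 ± 0.43) and the lysosomal cystine carrier Ctns among the higher, and the aromatic amino acid carrier Slc16a10 the lower (log2 difference -2.57 ± 0.39, adjusted p = 5.73e-05). Enzymes counted 5 higher and 2 lower of 30, the Atf4 list 2 and 4 of 25, and the synthetases 1 and 0 of 19 (23.3%, 24% and 5.26% called).

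In the sheath against epidermis, 0 to 16.7% of a list was called, against 9.83% of all genes. The sulphur enzyme Cdo1 was at 31.4 against 0.416 FPKM (log2 difference 4.44 ± 0.62, adjusted p = 4.06e-05), and the alanine transaminase Gpt at 3.02 against 32.0 (log2 difference -3.03 ± 0.47, adjusted p = 1.10e-04). The peptide carrier Slc15a2 was higher (log2 difference 2.72 ± 0.62, adjusted p = 0.00486), and of the synthetases 0 of 19 were called. In matrix against sheath, 0 of 19 synthetases, 0 of 25 Atf4 genes and 0 of 33 sensing genes were called beside 3.83% of all genes. Slc16a10, from 5.35 FPKM in ORS to 35.3 in Mx (log2 difference 2.47 ± 0.39, adjusted p = 6.01e-04), and the polyamine enzyme Odc1, from 29.2 to 138 (log2 difference 2.24 ± 0.33, adjusted p = 3.47e-04), rose there, and Cdo1 and Slc15a2 fell (-3.66 ± 0.62 and -2.25 ± 0.62). TAC against Mx had 0 calls in all 5 lists (1.27% of all genes).

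In the papilla against fibroblasts, 4 of 25 Atf4 genes were lower, among them Psat1 (log2 difference -1.75 ± 0.39, adjusted p = 0.00827) and Stc2 (-2.34 ± 0.44), as were 5 of 30 enzymes, among them the arginine synthesis gene Ass1 (-3.65 ± 0.85) and the creatine synthesis gene Gatm (-2.57 ± 0.49), and 1 of 19 synthetases, Wars. These are 16%, 16.7% and 5.26% of their lists against 6.69% of all genes (4.25% lower). The 1 higher gene of the 5 lists was Rragb. In HF-SC against HF-ORS the glutamine synthetase Glul was higher, at 72.9 against 11.4 FPKM (log2 difference 2.73 ± 0.33, adjusted p = 4.22e-05), as were Slc15a1, Arg2 and Wars, while Gpt, Gpt2 and Cth were lower (0 to 13.3% of a list against 4.4% of all genes). In G-DP against AA/ZZ-DP, Slc15a1 was the only call in the 5 lists, at 35.5 against 0.845 FPKM (log2 difference 4.33 ± 0.72, adjusted p = 0.00559). G/AA-DP against ZZ-DP had 0 calls in all 5.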

How the data were processed

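RNA of sorted cells (RIN of at least 8.8) was amplified from 6 ng with the Ovation RNA-seq V2 kit, and libraries were made from 100 ng of cDNA, per the labels' protocols. The authors deposited FPKM values per gene for 28 libraries. TopHat2 2.0.3, Bowtie2, Cufflinks 2.1.1 and the mm10 build are named in the submitters' processing notes; strand use, annotation and further scaling were not given in the sources used here. FPKM holds no read counts, so no count model was used and depth is unknown.

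Of 23235 rows, 220 exact repeats were dropped. The 15052 genes reaching 1 FPKM in 2 or more libraries were fitted as log2(FPKM + 1) by limma 3.58.1 (R 4.3.3), with a mean per population over all 28 libraries and a trended prior (14 residual and 5.72 prior degrees of freedom). A gene was called at a Benjamini-Hochberg adjusted p under 0.05 over all tested genes and a difference of at least 1 log2 unit. No replicate block was used. The procedure was tested on simulated data. Sequences and positions are RefSeq's (GRCm38.p6), matched by symbol for all 58 genes; promoter windows were available for 40.

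Named were Slc7a8, genes with a population mean of at least 10 FPKM, at most 12 called genes per comparison, at most 4 called genes per list and comparison, and the 5 genes most like Slc7a8; other named transporter genes, Slc1a2 and Slc38a9 among them, were chosen after their values were seen. The members and lists were chosen with earlier results of these data known. Alternatives were pseudocounts of 0.1 and 5, filters, quantile and median-of-ratios scaling, fits within 1 mouse line, a replicate block and leaving out each library; DP alone as mesenchyme was added after seeing the data.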

Additional observations from a re-analysis of the deposited data

How the results depend on the processing

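Of 58 differences of named transporter genes, 26 kept their call under every alternative run, 32 lost it at least once and 0 changed sign. With a pseudocount of 0.1, 2 genes were called in HF-SC against HF-ORS and 2 in G-DP against AA/ZZ-DP. Mx against ORS then had 7 lower (10 in the main fit), and Mc against DF 8 higher and 5 lower (8 and 3). In Mx against ORS, Slc6a2 lost its call with a pseudocount of 0.1 (limma, adjusted p = 0.0992) and with 5 (log2 difference -0.93). With 5, 1 was called in TAC against Mx. Quantile normalization gave 0 in TAC against Mx and 2 in HF-SC against HF-ORS, and median-of-ratios scaling 1 in TAC against Mx. Fits within 1 mouse line gave 1 in TAC against Mx, 0 in HF-SC against HF-ORS and 0 in G-DP against AA/ZZ-DP; these rest on fewer residual degrees of freedom. For the other settings the cause was not tested. Quantile normalization moved the median of all genes between epithelium and mesenchyme to 0.12 log2 units.

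Leaving out each library in turn gave 4 to 6 called genes in ORS against Epi (8 with all libraries), 5 to 7 in Mx against ORS (10), 0 to 1 in TAC against Mx (2), 4 to 6 in DP against DF (6), 10 to 12 in Mc against DF (11), 11 to 13 between epithelium and mesenchyme (12), 2 to 2 in HF-SC against HF-ORS (5), 1 to 4 in G-DP against AA/ZZ-DP (4) and 0 to 0 in G/AA-DP against ZZ-DP (0). It gave 6 to 10 signature genes (10) and 19 to 22 called pairs for Slc7a8 (22).

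With the replicate block the counts were 8, 11, 3, 7, 11, 12, 6, 5 and 0 in that order of comparisons, with 10 signature genes. Same-numbered libraries deviated together with a correlation over 0.1 in 27 of 28 pairs of the K14-H2BGFP line and in 34 of 60 pairs between lines. The 1 pair of the Sox2-GFP line (0.285) and that of the Crabp1-GFP line (0.283) also passed, and that of the Sox9-GFP line (0.071) did not. As this did not hold in every line, the main fit used no block. What same-numbered libraries share is unknown, and the main fit leaves it out. In Mx against ORS, 859 of all tested genes were called with the block and 577 without. Only 2 libraries per population and an unknown read depth limit the precision of low values.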
